A study of Mus musculus with 8 samples.

Results

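The genes described here encode the actin cytoskeleton and the contractile apparatus of smooth muscle, together with serum response factor (Srf) and genes that it is known to control. A gene was included by its symbol in the annotation deposited with the array data, on probe sets that name a single gene. It was represented by its probe set with the highest mean signal, and its other probe sets were kept as support. Of 33 genes listed, 31 had such a probe set, among 13243 genes with one on the array, and the 31 genes held 60 probe sets without the array's control probe sets. Myh10 had no probe set, and Myl6, the essential light chain of non-sarcomeric myosin, was on 3 probe sets that name other genes as well. For Actb the highest of all was an array control probe set, so the highest of the others was used.

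The measurements come from C3H10T1/2, a multipotent mouse mesenchymal cell line. Confluent cultures received 3.3 nM BMP7, a bone morphogenetic protein whose receptors phosphorylate SMAD proteins, or vehicle for 3 days. Total RNA of 4 vehicle and 4 BMP7 samples was hybridised to Affymetrix Mouse 430A arrays, 1 array per sample. The labels describe a single cell line, name no genetic change and number the samples of each group 1 to 4. They do not say whether the samples were separate cultures, so a p-value here reflects the spread among these samples, and that spread may be technical. The purpose that the design implies is to find which transcripts differ after BMP7.

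Actin filaments are polymers of actin subunits that tropomyosins, calponins and caldesmon bind along their sides, and that alpha-actinins, filamin and vinculin crosslink or tie to the adhesion sites of the cell. Non-muscle and smooth muscle myosin pull on them once the regulatory light chain is phosphorylated by myosin light chain kinase. SRF binds the CArG box in the control regions of many of these genes. Its partners of the MRTF family are held back by unpolymerised actin, so actin assembly feeds back on the supply of actin and its binding proteins, and other partners carry SRF to early response genes such as Egr1 and Fos.

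The promoters were searched because SRF control is what ties these genes together. In the RefSeq sequences of build GRCm38.p6, which run from 250 bases before to 50 bases after each start, 28 of the 33 listed genes had an entry. A CArG box, meaning CC, a run of A or T bases and GG with no mismatch, reads as the same pattern on both strands. It was present in 8 of the 28 genes (28.6%), against 488 of all 27025 genes (1.81%). The 8 were Srf, Actg1, Vcl, Myl9, Fhl1, Fhl2, Cnn2 and Myl6. The shorter motif CATTCC, known as MCAT and searched on both strands and able to share its end bases with a CArG box, was present in 12 of 28 genes (42.9%) against 16.6% of all genes. The list was drawn up around SRF, so these shares describe it and test nothing, and a window without a match says only that these letters are not in it. The windows of 6 of these genes, those whose signals are given array by array below, are printed 5′ to 3′ on the strand of the gene, with the CArG box in capitals.
Srf, chr17:46556190-46556269, minus strand: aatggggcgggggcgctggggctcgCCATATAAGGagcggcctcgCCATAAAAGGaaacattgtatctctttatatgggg
Actg1, chr11:120348551-120348610, minus strand: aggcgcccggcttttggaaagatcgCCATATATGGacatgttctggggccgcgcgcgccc
Vcl, chr14:20929148-20929205, plus strand: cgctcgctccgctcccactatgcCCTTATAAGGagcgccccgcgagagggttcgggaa
Myl9, chr2:156775278-156775337, plus strand: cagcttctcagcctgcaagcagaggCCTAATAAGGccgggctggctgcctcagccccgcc
Fhl1, chrX:56779556-56779615, plus strand: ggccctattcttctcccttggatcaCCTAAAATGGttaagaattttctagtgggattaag
Fhl2, chr1:43196823-43196882, minus strand: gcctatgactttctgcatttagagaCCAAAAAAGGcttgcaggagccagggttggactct
Fhl2, chr1:43163958-43164017, minus strand: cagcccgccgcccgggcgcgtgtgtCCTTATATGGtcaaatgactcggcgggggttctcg
The Srf window holds 2 boxes, whose first bases lie at positions -82 and -62 from the start of transcription. Fhl2 has a box in each of its 2 annotated promoters, at -96 and at -31. No CArG box was in the windows of Mylk, Actn4, Actn1, Acta2, Smtn or Csrp1, while Tagln, Actg2, Myh11, Csrp2 and Actb were not in the promoter table.

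Vehicle 3 stood apart from the other arrays in its control probe sets. On it, the signal ratio of the 3′ to the 5′ control probe set of Actb was 6.55, against 1.17 to 1.40 on the other 7 arrays, and that of Gapdh was 3.36 against 0.725 to 1.35. The mean log2 signal of the spiked hybridisation controls was 11.92 to 13.25 on the vehicle arrays, highest on Vehicle 3, and 11.72 to 11.96 on the BMP7 arrays, so that it moved in part with the treatment. The part of either in the results was not tested beyond the fits without Vehicle 3 or with these values as covariates. All 11 markers of mesenchymal cells passed the filter on low signals (a mean log2 of 8.41, a signal of about 325), whereas 2 of 15 markers of skeletal muscle, 4 of 6 of macrophages, 1 of 5 of endothelium and 0 of 5 of epithelium did. Summed signals of the skeletal muscle markers were 2398 to 2989 on vehicle and 1862 to 3163 on BMP7 arrays, and those of the macrophage markers 2764 to 3821 and 2756 to 3962. Endothelial markers summed to 958 to 1167 and 742 to 1702, epithelial markers to 454 to 945 and 544 to 918, and mesenchymal markers to 295391 to 405567 and 235836 to 287034. Only the mesenchymal sum had groups that did not overlap, with every BMP7 array lower, and its part in the results was not tested. That sum is led by the markers with the strongest signals. In the test used below, 2 of the 11 mesenchymal markers fell and 1, Ly6a, rose (0.89 on the log2 scale, adjusted p = 0.0352).

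Few of these genes passed the test between treatments after adjustment for multiple tests. Of the 26 members that passed the filter, 1 rose (Actn4) and 2 fell (Mylk and Fhl2) at an adjusted p below 0.05, while among all 13576 tested probe sets 1.63% rose and 1.5% fell. Some members named below passed only in other fits, in which the number of probe sets called also differed. With all arrays 221 probe sets rose and 204 fell. Leaving out arrays gave 23 to 702 rises and 26 to 382 falls, and array weights gave more still. The members' log2 fold changes had a median of -0.20, against 0.04 over all tested probe sets. Under quantile normalization these medians were 0.03 and -0.01, so the sign of the members' median depended on the normalization. Every BMP7 array was above every vehicle array for 3 members (Actn4, Smtn and Csrp1; 8.3% of all tested probe sets) and below for 4 (Mylk, Fhl2, Actg1 and Cald1; 7.1%). Before that adjustment, 5 of the 26 members were higher and 9 lower at p below 0.05, against 12.5% and 9.35% of all tested probe sets. On 1 probe set per gene, as for the members, 908 of 8371 tested genes were higher and 865 lower. The members' shares were thus the larger in both directions in this fit. The members at p below 0.05 numbered 14 here, 16 with array weights, 4 with the hybridisation controls as a covariate and 6 without both arrays numbered 2. The members were chosen with earlier results of these data known, so these shares are a description. In the authors' deposited table, 7 of the 31 members had an unadjusted p-value below 0.05, as did 11.8% of all probe sets. In bulk RNA, a lower level can mean less RNA per cell or fewer cells that make it, and these cannot be told apart.

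**Figure D1:**
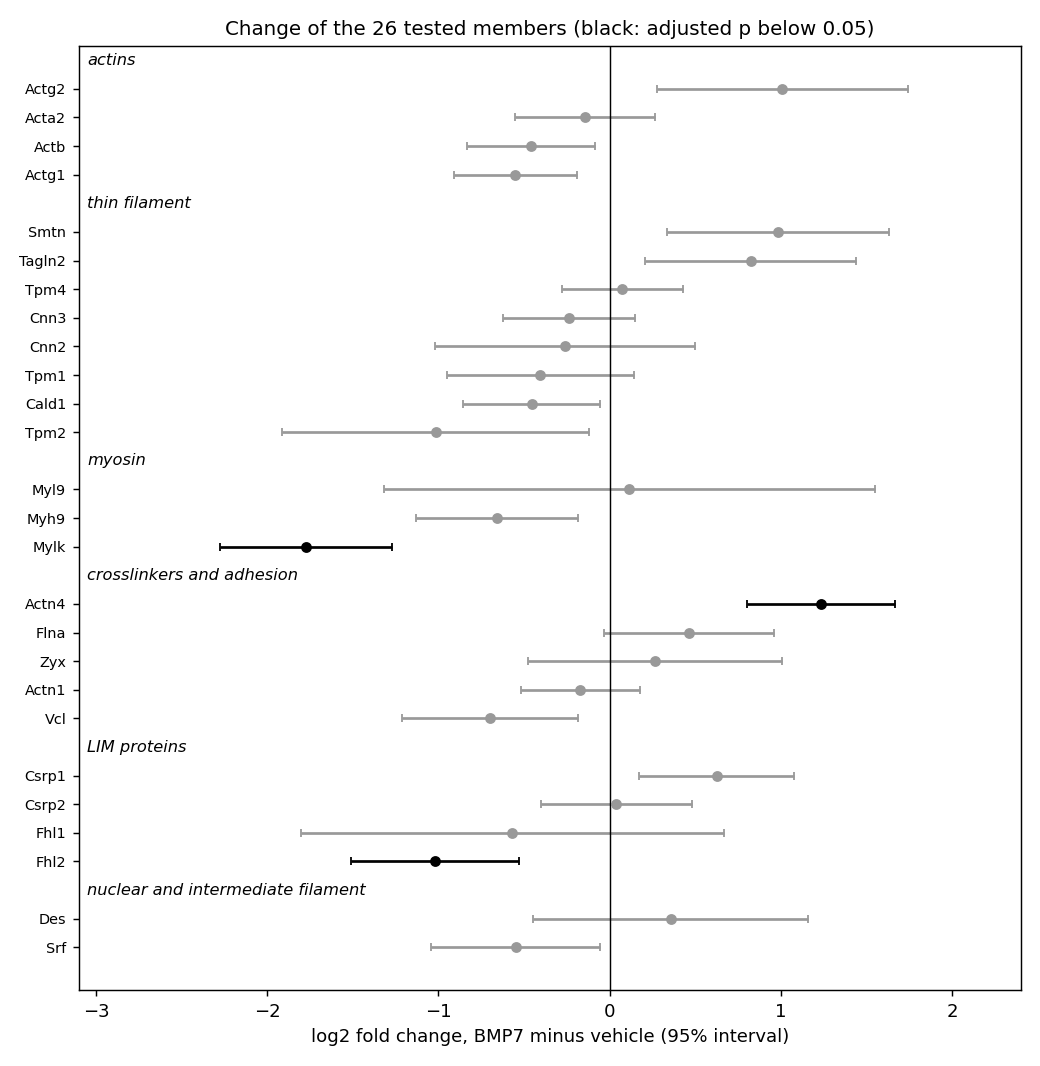
Log2 fold change (BMP7 minus vehicle) of the 26 tested members with 95% intervals, grouped by role; black marks an adjusted p below 0.05. Mylk (-1.78) and Fhl2 (-1.02) lie on the left in black and Actn4 (1.24) on the right, while the intervals of Myl9 and Fhl1 are the widest.

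None of the 4 actins passed the test with all arrays. Acta2, smooth muscle alpha-actin, gave a high signal in every sample: 39153.0, 40323.9, 46257.8 and 25707.0 on vehicle arrays 1 to 4 and 35800.2, 33680.9, 30402.7 and 34183.7 on BMP7 arrays 1 to 4. The groups overlapped, with Vehicle 4 the lowest of all 8, and the log2 fold change was -0.15 (SE 0.19), with a 95% interval of -0.56 to 0.26. Actg1, cytoplasmic gamma-actin, whose promoter holds a CArG box, read 55648.2, 63957.3, 72974.7 and 46857.1 on vehicle arrays 1 to 4 and 38340.4, 38057.6, 39365.3 and 45994.5 on BMP7 arrays 1 to 4. All 4 BMP7 arrays lay below all 4 vehicle arrays, of which Vehicle 4 was the nearest, and the log2 fold change was -0.55 (SE 0.16), adjusted p = 0.0916. Actg1 passed without Vehicle 4 (-0.66, adjusted p = 0.0307) and with array weights (-0.45, adjusted p = 0.0302), whereas under quantile normalization its log2 fold change was -0.0352 (adjusted p = 0.8545). Actb, cytoplasmic beta-actin, differed by -0.46 (SE 0.17) on the log2 scale (adjusted p = 0.1489). Its other tested probe set differed by -0.10 (adjusted p = 0.9334). The 3′, middle and 5′ control probe sets of Actb, which were not tested, differed by -0.52, -0.13 and 0.16, so the value for Actb depends on the probe set. These probe sets of Acta2 and Actg1 end in _s_at, the suffix of sets that can bind transcripts of related genes, and under quantile normalization the log2 fold changes of Acta2 and Actb were 0.24 and 0.04.

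Actg2, smooth muscle gamma-actin, had the only positive difference among the actins. It read 751.3, 661.6, 300.0 and 493.4 on vehicle arrays 1 to 4 and 1747.1, 982.4, 1039.6 and 724.2 on BMP7 arrays 1 to 4, so that all BMP7 arrays but the fourth exceeded the highest vehicle array. The log2 fold change was 1.01 (SE 0.33), adjusted p = 0.1177, and 0.75 without Vehicle 3.

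Among the 11 proteins that bind along the thin filament, 8 were tested, and none passed the threshold in either direction. Smtn, smoothelin, a protein of contractile smooth muscle, came closest. Its signal was 882.3, 467.2, 1269.8 and 1236.0 on vehicle arrays 1 to 4 and 1592.6, 1864.7, 1963.8 and 1772.0 on BMP7 arrays 1 to 4, and every BMP7 array was above every vehicle array. The log2 fold change was 0.98 (SE 0.29), adjusted p = 0.0921; it passed without Vehicle 3 (1.15, adjusted p = 0.0428), without Vehicle 4 (1.14, adjusted p = 0.0490) and with array weights (1.03, adjusted p = 0.0086). Tagln2, transgelin 2, the transgelin of non-muscle cells, differed by 0.82 (SE 0.28, adjusted p = 0.1251), and its second probe set by 0.62. Without Vehicle 4 Tagln2 passed (1.02, adjusted p = 0.0467), and it did so in no other fit. Without Vehicle 2 the value was 0.54 (adjusted p = 0.1892).

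Cald1, caldesmon, which binds actin, tropomyosin and myosin, read 25443.5, 35013.6, 37073.7 and 22912.4 on vehicle arrays 1 to 4 and 22720.7, 22119.3, 20184.1 and 21039.8 on BMP7 arrays 1 to 4. The BMP7 arrays lay within a narrow band just under Vehicle 4, the lowest vehicle array. The difference was -0.46 (SE 0.18) on the log2 scale, adjusted p = 0.1764. The tropomyosins Tpm1, Tpm2 and Tpm4, which lie along the groove of the filament, had log2 fold changes of -0.40, -1.02 and 0.07. For Tpm2, Vehicle 3 read 18026.6 against 5480.4 to 9862.2 on the other vehicle arrays, and without it the difference was -0.66 (adjusted p = 0.2532). Tpm2 passed with array weights (-1.06, adjusted p = 0.0438) and in no other fit. The calponins Cnn2 and Cnn3, actin-binding proteins of non-muscle cells, had differences of -0.26 and -0.24, and that of Cnn2 was 0.04 without Vehicle 3.

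Markers of smooth muscle differed in level. Acta2, Actg2, Smtn and Des passed the filter on low signals. Tagln (SM22), Cnn1 (calponin 1), Myh11 (smooth muscle myosin heavy chain) and Lmod1 (leiomodin 1, an actin nucleator) were below it, as was Ankrd1, a nuclear cofactor of striated muscle, so they have values but no test. Tagln read 515.7, 40.8, 128.9 and 65.8 on vehicle arrays 1 to 4 and 1103.8, 396.6, 32.0 and 179.5 on BMP7 arrays 1 to 4, which spans 32.0 to 1103.8 among the BMP7 arrays alone. Cnn1 read 69.4, 50.8, 39.3 and 20.3 on vehicle arrays 1 to 4 and 370.7, 108.1, 54.3 and 44.0 on BMP7 arrays 1 to 4. In both genes BMP7 1 was the highest of the 8 arrays. Myh11 lay between 14.2 and 83.4 on all 8 arrays, and its second probe set between 17.5 and 41.3. Ankrd1 read 131.6 to 182.8 on the vehicle arrays and 45.3 to 169.5 on the BMP7 arrays. Des, desmin, the intermediate filament of muscle, was tested and differed by 0.36 (SE 0.37, adjusted p = 0.5914).

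Mylk, the kinase that switches on smooth muscle and non-muscle myosin by phosphorylating its regulatory light chain, showed the largest fall among the members. Its signal was 2064.8, 1632.5, 1782.8 and 1279.5 on vehicle arrays 1 to 4 and 626.8, 402.1, 405.0 and 498.5 on BMP7 arrays 1 to 4. The highest BMP7 array stayed far below the lowest vehicle array, and the means were 1689.9 ± 327.1 on vehicle and 483.1 ± 105.8 on BMP7 arrays (SD, n = 4 each). Mylk fell by 1.78 on the log2 scale (SE 0.23, 95% interval -2.28 to -1.27), which is 3.42-fold lower, adjusted p = 0.0032. A second probe set differed by -1.29, with no overlap of the groups and an adjusted p of 0.0549. The remaining one, with signals of 203.9 to 495.0, differed by -0.04. Without Vehicle 3 the fall on the first was 1.74 (adjusted p = 0.0038), and with the hybridisation controls as a covariate the difference was -1.599, with an adjusted p of 0.0625.

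Myl9, a regulatory light chain and one of the substrates of that kinase, did not separate the groups. It read 6049.4, 1962.4, 895.6 and 1095.8 on vehicle arrays 1 to 4 and 7058.1, 1511.4, 1164.2 and 1299.7 on BMP7 arrays 1 to 4. Arrays 1 of both groups stood far above the other 6, and the log2 fold change was 0.12 (SE 0.65), with a 95% interval of -1.32 to 1.55. Myh9, the heavy chain of non-muscle myosin IIA, differed by -0.66 (SE 0.21, adjusted p = 0.1135), and its 3 other probe sets by -0.39, -0.25 and -0.03. Without Vehicle 4 Myh9 passed (-0.84, adjusted p = 0.0256), as it did with array weights (-0.71, adjusted p = 0.0180). It passed in no other fit, and with the hybridisation controls as a covariate the value was -0.40 (adjusted p = 0.6280). On the 3 probe sets that Myl6 shares with other genes, the differences were 0.01, -0.34 and -0.42. Vehicle 3 was the highest array on each of them, and without it the differences were 0.11, 0.0622 and 0.0026.

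**Figure D2:**
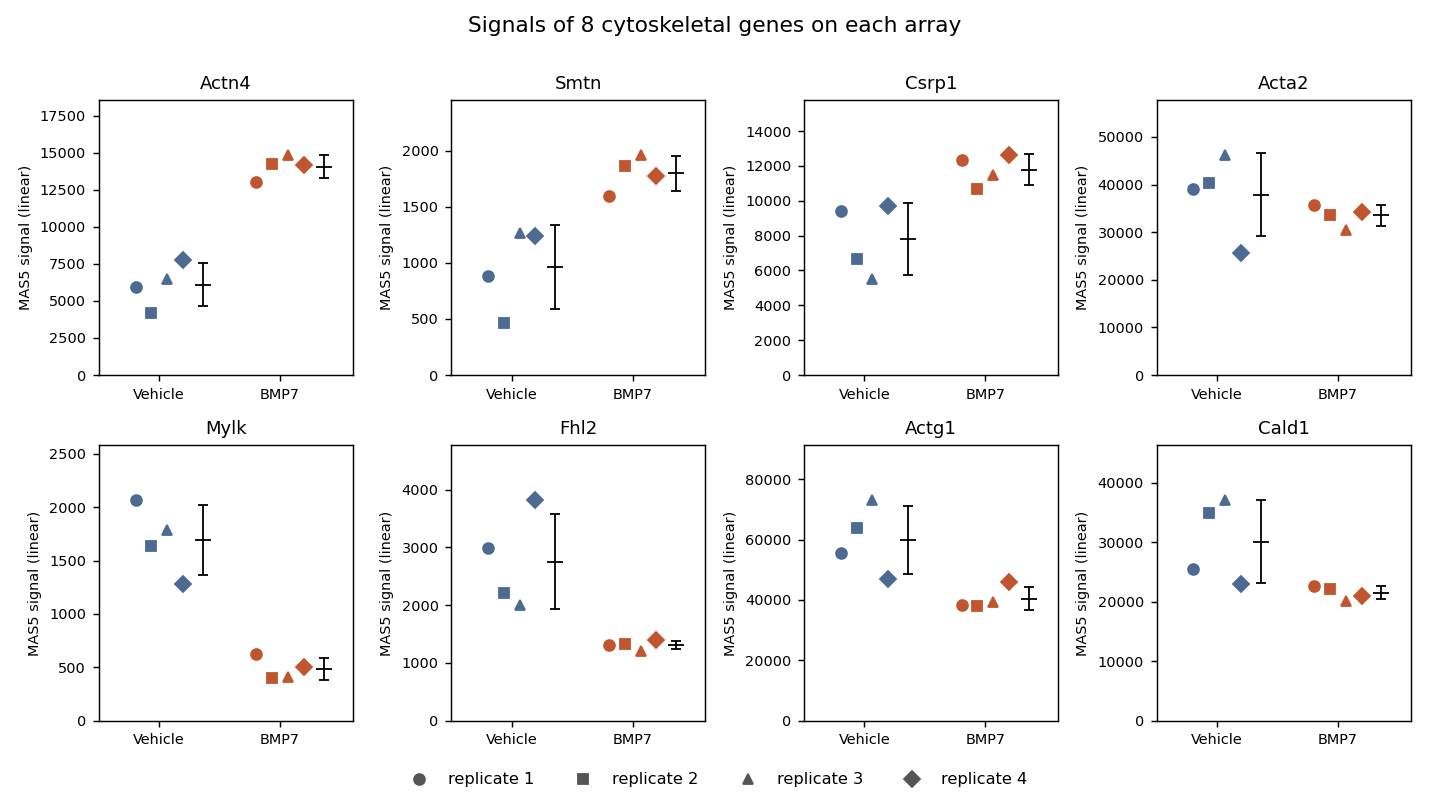
MAS5 signal (linear axis) of 8 members on each array, with the marker giving the replicate number in the labels and the bars the mean ± SD of 4 arrays. The groups are apart for Actn4, Smtn and Csrp1 (BMP7 higher) and for Mylk, Fhl2, Actg1 and Cald1 (BMP7 lower), by the least in Cald1 and Actg1, and they overlap for Acta2.

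Of the 5 proteins that crosslink filaments or anchor them at adhesions, Actn4 rose. Actn4, alpha-actinin 4, a non-muscle crosslinker, read 5950.4, 4203.4, 6456.6 and 7751.4 on vehicle arrays 1 to 4 and 13014.1, 14208.1, 14850.2 and 14149.4 on BMP7 arrays 1 to 4. The lowest BMP7 array was well above the highest vehicle array, and the means were 6090.4 ± 1468.9 on vehicle and 14055.5 ± 763.4 on BMP7 arrays (SD, n = 4 each). It rose by 1.24 (SE 0.20) on the log2 scale (95% interval 0.80 to 1.67), which is 2.36-fold, adjusted p = 0.0093. Without BMP7 2 or BMP7 3 the value was 1.23 or 1.21, with adjusted p of 0.0506 and 0.0513. Without Vehicle 3 it was 1.28 (adjusted p = 0.0050), and with the hybridisation controls as a covariate 1.11 (adjusted p = 0.1211).

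Its paralogue Actn1, alpha-actinin 1, gave a divided answer. The probe set with the highest signal differed by -0.17 (SE 0.16, 95% interval -0.52 to 0.18). The other 2 probe sets both rose, by 1.05 (SE 0.22, adjusted p = 0.0332) and 1.20 (SE 0.23, adjusted p = 0.0244). The first of them read 1802.6, 1418.0, 2331.7 and 2884.5 on vehicle arrays 1 to 4 and 4322.1, 3936.2, 4502.7 and 4255.5 on BMP7 arrays 1 to 4. It shares its database accession with the other rising probe set and not with the representative. With the mean of the 3 probe sets in place of the highest, Actn1 gave a log2 value of 0.69 (adjusted p = 0.0368). Both rises lost the call when Vehicle 1, BMP7 2, BMP7 3 or BMP7 4 was left out (adjusted p = 0.0640 to 0.1262), and the first also without Vehicle 2 (0.0504) or BMP7 1 (0.0780).

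Vcl, vinculin, a linker between actin and integrin adhesions, read 29827.3, 33120.1, 24714.4 and 16373.4 on vehicle arrays 1 to 4 and 20589.5, 14122.2, 13209.6 and 15043.9 on BMP7 arrays 1 to 4. The BMP7 arrays were at the low end, and Vehicle 4 lay among them. The difference was -0.70 (SE 0.23, adjusted p = 0.1223), while the second probe set gave 0.83, or 0.19 without Vehicle 3. Without Vehicle 4 the first passed (-0.90, adjusted p = 0.0263), as it did with array weights (-0.80, adjusted p = 0.0170). It passed in no other fit, and with the hybridisation controls as a covariate the value was -0.47 (adjusted p = 0.6217). Flna, filamin A, which joins filaments into networks, differed by 0.46 (SE 0.23, adjusted p = 0.2548). Zyx, zyxin, a LIM protein of adhesions, differed by 0.26 (SE 0.34), and its second probe set by -1.28 (SE 0.91, adjusted p = 0.4337). That second probe set read 126.5 to 1080.2 on the vehicle arrays and 54.0 to 931.2 on the BMP7 arrays.

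Of the 4 LIM-domain proteins grouped together here, 1 fell and none rose. Fhl2, a cofactor that binds SRF and is itself a known SRF target, fell: its signal was 2989.3, 2207.1, 2006.6 and 3813.2 on vehicle arrays 1 to 4 and 1306.0, 1320.5, 1208.4 and 1394.9 on BMP7 arrays 1 to 4. The 4 BMP7 values lay close together and all below the lowest vehicle value. Fhl2 fell by 1.02 on the log2 scale (SE 0.22, 95% interval -1.51 to -0.53), which is 2.03-fold lower, adjusted p = 0.0364. Of the 3 calls it was the one lost most often when a single array was left out: its adjusted p was 0.0981 without Vehicle 1 and 0.0789 to 0.1351 without any one BMP7 array, although the log2 value stayed between -1.05 and -0.97 in those fits. Without Vehicle 3 it was -1.16 (adjusted p = 0.0111). With the hybridisation controls as a covariate Fhl2 was the only member still called (-1.497, adjusted p = 0.0343).

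Csrp1, a cysteine-rich protein that bundles actin, read 9423.3, 6641.2, 5520.3 and 9703.0 on vehicle arrays 1 to 4 and 12347.5, 10656.7, 11469.4 and 12639.3 on BMP7 arrays 1 to 4. Every BMP7 array was above every vehicle array. The log2 fold change was 0.63 (SE 0.21, adjusted p = 0.1156), and that of its second probe set 1.45 (adjusted p = 0.1033). Csrp2, its relative, gave 0.04 (SE 0.20), with a 95% interval of -0.40 to 0.48. Fhl1 read 5073.7, 2960.4, 2024.3 and 1672.9 on vehicle arrays 1 to 4 and 6296.3, 1917.9, 840.3 and 1018.5 on BMP7 arrays 1 to 4. Its 2 highest signals were on Vehicle 1 and BMP7 1, and the difference was -0.57 (SE 0.56), with a 95% interval of -1.81 to 0.67.

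Srf, whose own promoter window holds 2 CArG boxes, read 1261.0, 1744.0, 2151.6 and 1219.8 on vehicle arrays 1 to 4 and 908.1, 1064.0, 1047.8 and 1221.4 on BMP7 arrays 1 to 4. BMP7 4 lay just above the lowest vehicle array. The log2 fold change was -0.55 (SE 0.23, adjusted p = 0.1882), while the second probe set gave 0.61 (SE 0.46), so the direction for Srf depends on the probe set.

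Such division was not limited to Srf. Of 13 members with more than 1 tested probe set, 7 had probe sets in both directions. Some of these opposite values were small against their SE, as on a probe set of Tpm1 (0.07, SE 0.38). In 3 of the 13 (Cnn3, Tpm2 and Cald1) Vehicle 3 was the highest vehicle array on one probe set and the lowest on another. Neither count was set against a share over all genes of the array. Cald1, for example, read 37073.7 on Vehicle 3 with its representative, the highest of the 8 arrays, and 6458.8 with its second probe set, the lowest. That second probe set differed by 0.31 with all arrays and by -0.06 without Vehicle 3.

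**Figure D3:**
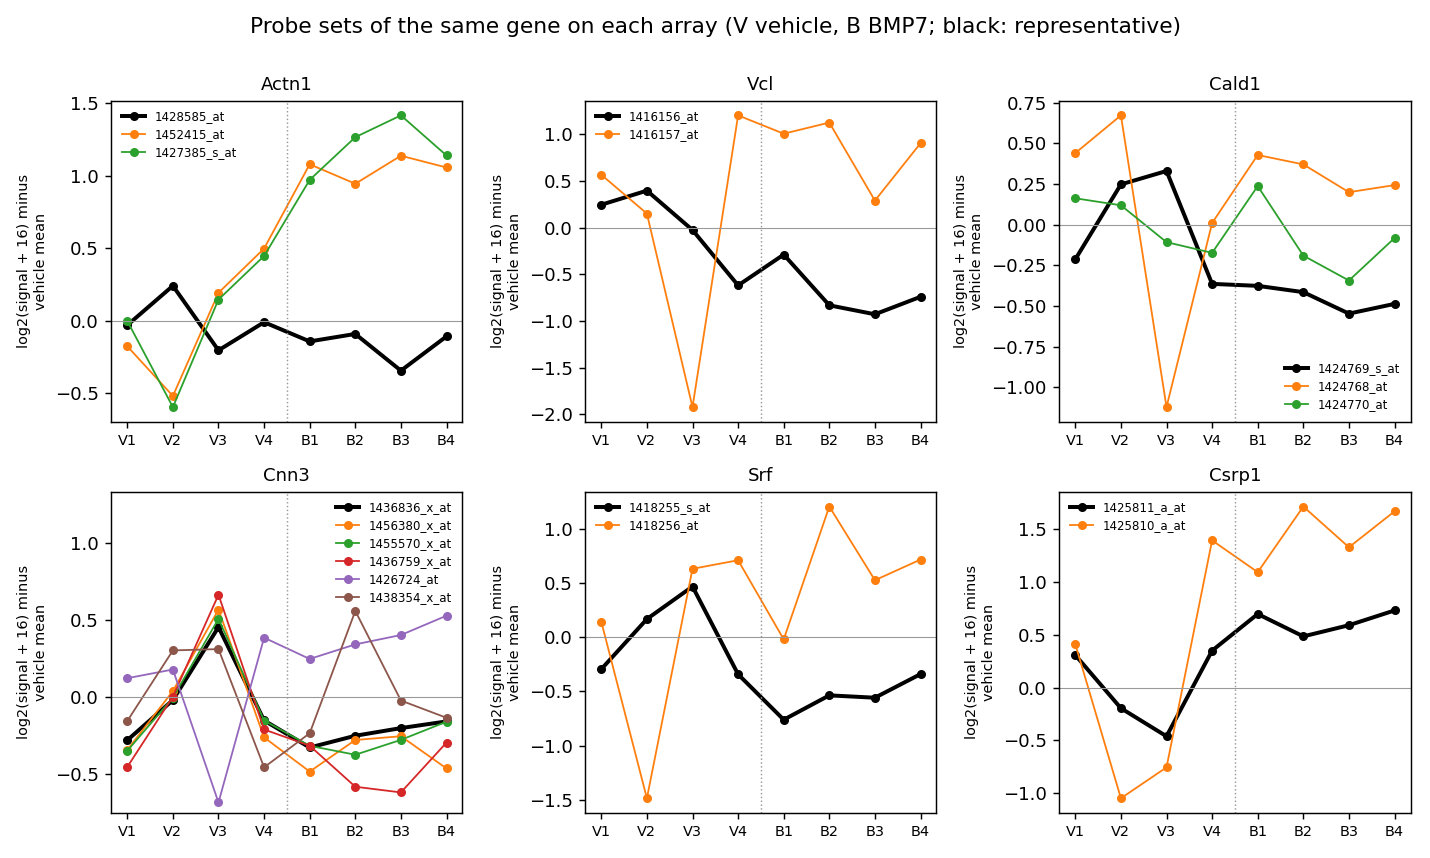
Log2(signal + 16) of each tested probe set of 6 members, minus its mean over the vehicle arrays, on vehicle arrays 1 to 4 (V1 to V4) and BMP7 arrays 1 to 4 (B1 to B4); the representative is in black. Both other probe sets of Actn1 rise on the BMP7 arrays, and V3 goes opposite ways on different probe sets of Cald1 and Cnn3 and is far down on the second of Vcl.

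Some of the members were highest on the arrays that share the number 1. The array numbered 1 was the highest of its group in both groups for 7 of the 31 members: Actg2, Tagln, Cnn1, Myl9, Mylk, Lmod1 and Fhl1. Of these, Tagln, Cnn1 and Lmod1 were below the filter. The smooth muscle markers Acta2, Smtn, Des and Myh11 did not share this pattern. Among tested members the array numbered 1 was the highest in both groups for 4 of 26, against 9.66% of all tested probe sets. These counts are small and are given as a description. It was at least 1.5 times every other array of its group in both groups for Tagln, Myl9, Lmod1 and Fhl1; Myl9 and Fhl1 are 2 of the 26 tested members, against 0.523% of all tested probe sets. Lmod1 read 432.3, 167.8, 200.0 and 96.2 on vehicle arrays 1 to 4 and 249.0, 59.0, 144.4 and 58.5 on BMP7 arrays 1 to 4. Over all tested members, the coefficient of variation had a median of 27.9% on vehicle and 14.3% on BMP7 arrays, against 27.9% and 15.2% over all tested probe sets.

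The listed early response genes of SRF had a different high array. Arrays numbered 2 were the highest of their group in both groups for 11 of the 12 tested early genes, all but Egr3, against 6.4% of all tested probe sets. Egr1, a zinc-finger factor, read 2257.8, 32831.5, 6312.3 and 2313.8 on vehicle arrays 1 to 4 and 1714.2, 17427.8, 804.3 and 1280.8 on BMP7 arrays 1 to 4. Fos, a subunit of AP-1, read 251.4, 9829.1, 500.9 and 345.9 on vehicle arrays 1 to 4 and 622.6, 7734.1, 774.8 and 590.0 on BMP7 arrays 1 to 4. In both genes the arrays numbered 2 stood apart from the other 6, and neither passed the test between treatments (adjusted p = 0.4720 and 0.7959). The labels do not say what the numbers stand for.

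**Figure D4:**
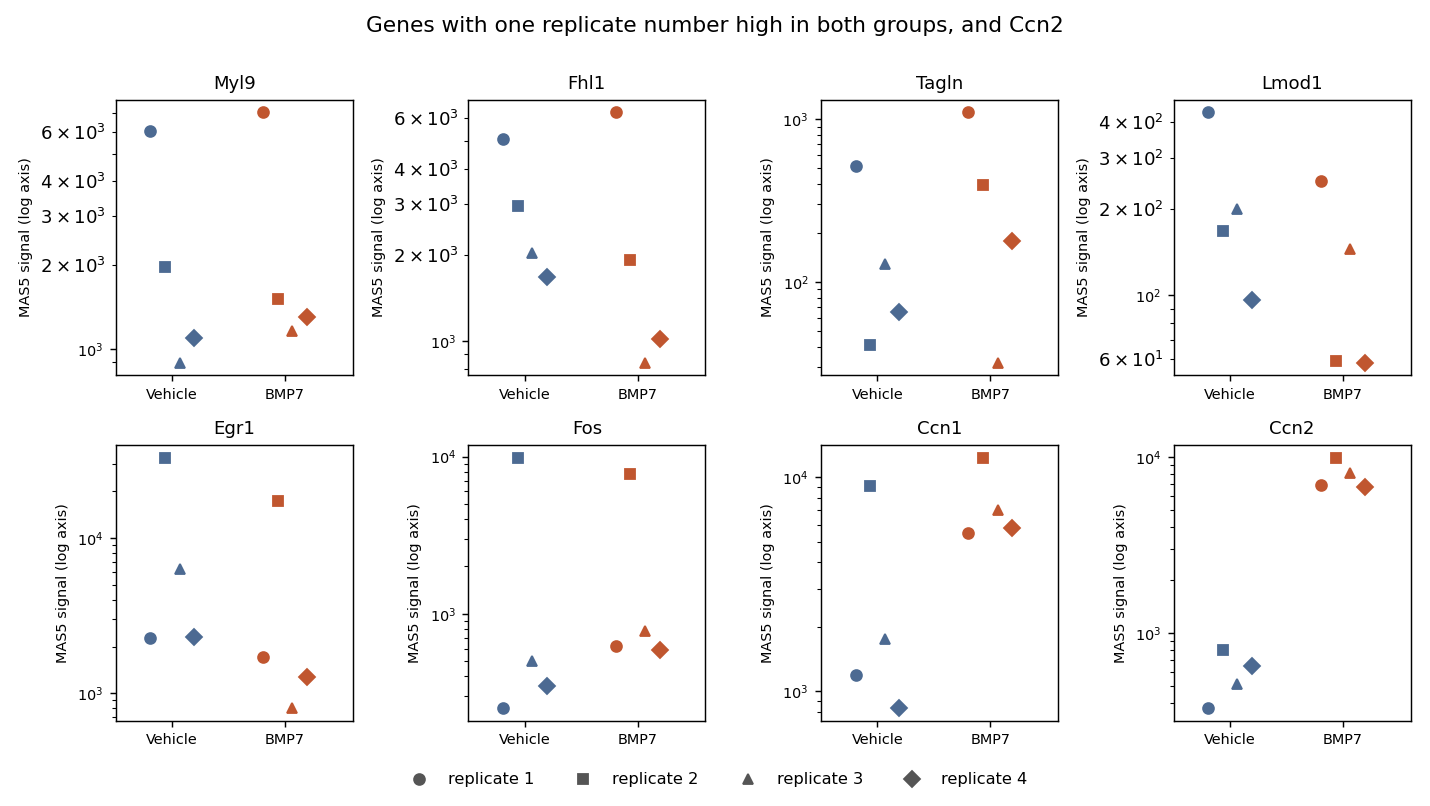
MAS5 signal (log axis) of 4 members and 4 SRF-linked early genes, with the marker giving the replicate number. Replicate 1 is on top in both groups for Myl9, Fhl1, Tagln and Lmod1 and replicate 2 for Egr1, Fos, Ccn1 and Ccn2, while only in Ccn2 among the 8 are all BMP7 arrays above all vehicle arrays.

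Other genes of actin dynamics, adhesion and SRF control were taken from 4 lists of 114 genes in all, of which 102 were tested. Of these, 2 rose and 3 fell, against 1.63% and 1.5% of all tested probe sets, and their median on the log2 scale was 0.03. The counts in each list below are so small that they are given as a description. Mrtfa, the actin-sensing SRF partner, differed by 0.17 (SE 0.21, adjusted p = 0.6529). Myocd, myocardin, was below the filter with signals of 4.3 to 212.9, and Mrtfb had no probe set.

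Of 36 tested genes of actin dynamics, Gsn fell and none rose, with a list median of -0.13. Gsn, gelsolin, which severs and caps filaments, read 25740.7, 31072.1, 50821.4 and 19495.0 on vehicle arrays 1 to 4 and 15867.9, 12778.0, 14313.8 and 12877.5 on BMP7 arrays 1 to 4. Its BMP7 arrays were all below its vehicle arrays, and it fell by 1.10 on the log2 scale (SE 0.26, adjusted p = 0.0449). That probe set ends in _x_at, a suffix of sets that can bind other transcripts. Of the other tested probe sets of Gsn, those with the same suffix gave -0.97 (adjusted p = 0.0445), -0.79 (adjusted p = 0.1062) and 0.98 (adjusted p = 0.2684). The unsuffixed one gave -0.52 (adjusted p = 0.1264) and the mean of all of them -0.48 (adjusted p = 0.0774), so the size of the fall and its call depend on the probe set. Of 28 tested adhesion genes, Svil and Flnc fell and none rose, with a list median of 0.11. Svil, supervillin, a membrane-associated actin and myosin binder, read 4321.6, 3741.1, 3044.2 and 3305.8 on vehicle arrays 1 to 4 and 1833.5, 1337.6, 1244.1 and 1804.5 on BMP7 arrays 1 to 4. Its groups were apart, and it fell by 1.21 (SE 0.20, adjusted p = 0.0122), while its other probe set gave -0.79 (adjusted p = 0.1252). Flnc, the filamin of muscle, fell by 0.93 (SE 0.20, adjusted p = 0.0323). The call of Svil was lost without BMP7 2 (adjusted p = 0.0616) or BMP7 3 (0.0601), and that of Flnc without Vehicle 1, BMP7 2, BMP7 3 or BMP7 4 (0.0815 to 0.1303). Gsn kept its call without Vehicle 3, its highest array, or Vehicle 4, and lost it without any of the other 6 (0.0784 to 0.1412).

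The 2 rises were in the list of 12 tested early genes, whose median log2 fold change was 0.25. Ccn2, a secreted matricellular protein also called CTGF, read 374.7, 802.5, 514.9 and 647.6 on vehicle arrays 1 to 4 and 6941.3, 9893.1, 8084.7 and 6725.6 on BMP7 arrays 1 to 4. The groups were far apart, and it rose by 3.76 (SE 0.25) on the log2 scale, adjusted p = 5.53e-05. Junb, an AP-1 subunit, rose by 1.66 (SE 0.37), adjusted p = 0.0390, a call lost without Vehicle 1, BMP7 2, BMP7 3 or BMP7 4 (0.1006 to 0.1320). Ccn1, the relative of Ccn2 also called CYR61, read 1199.0, 9058.2, 1761.7 and 837.2 on vehicle arrays 1 to 4 and 5466.9, 12294.5, 6984.8 and 5795.6 on BMP7 arrays 1 to 4. Vehicle 2 lay among the BMP7 arrays, and the log2 fold change was 1.84 (SE 0.60) with an adjusted p of 0.1156. Without Vehicle 2 it was 2.56 (adjusted p = 0.0085), in a fit that kept BMP7 2, the highest BMP7 array. With array weights it was 2.25 (adjusted p = 0.0071).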

How the data were processed

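Each array's intensity per probe set, a MAS5 signal on a linear scale, is the authors' deposited value. The submitters' processing notes name MAS5; the version and the scaling target were not found in them. The deposited p-value is used only where named. The group of each array came from its title. 8 per-sample columns of the annotated table have names that match no sample and were not used. The group means of the values used matched the deposited means in all 22690 rows within 0.01.

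Values were analysed as log2(signal + 16), so fold changes understate those of low signals. Probe sets with a mean at or above the 40th percentile (8.41) were tested, 13576 in all, with limma 3.58.1 (lmFit, eBayes with trend, two-sided) in R 4.3.3. The Benjamini-Hochberg adjustment covered all of them, with a threshold of 0.05. The median SE of a log2 fold change was 0.25, and 4 arrays per group limit the precision. Names are those of the files, updated by Entrez identifier to RefSeq for 20828 of 21453 single-gene probe sets.

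Genes named were members that passed the threshold or whose groups did not overlap, 20 members named whatever they did, genes of the other lists that passed, and 6 further regulators or targets of SRF, of which 1 is not reported here. Others are described by values given beside them. The members and lists were chosen with earlier results of these data known. Alternatives covered the pseudocount, filter, normalization, array weights, control covariates, probe set choice, replicate block and leaving out arrays.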

Additional observations from a re-analysis of the deposited data

Results flagged for a closer look

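Over 82 groups of 4 arrays, made from the 31 members and the further genes named above, 2 had one array whose gap to the nearest other, divided by the group's range on the log2 scale, exceeded the 95% critical value of Dixon's test for 4 values. Chance flags about 1 in 20 groups. The Myl9 signal of 7058.1 on BMP7 1 lay above the 1164.2 to 1511.4 of the other BMP7 arrays, a ratio of 0.856. The Fos signal of 7734.1 on BMP7 2 lay above 590.0 to 774.8, a ratio of 0.896.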

How the results depend on the processing

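The calls of Actn4, Mylk and Fhl2 were the same with a pseudocount of 1 or 64, no filter, a filter at the 60th percentile, quantile normalization, median centring, no trend, the Actb 3′/5′ ratio as a covariate and the replicate block. Array weights gave 2 members that rose and 6 that fell, 9 and 7 related genes, and 1013 and 765 probe sets. The hybridisation control signal as a covariate gave 0 and 1 members (Fhl2 alone), 1 and 0 related genes, and 24 and 26 probe sets. Related genes that rose numbered 1 with no filter and 4 with quantile normalization. When each gene was the mean over its probe sets, 2 members and 6 related genes rose. With _x_at, _s_at and _a_at probe sets left out, 0 members rose and 1 fell; Actn4 and Fhl2 have no others. Leaving out arrays gave 0 to 3 members that rose, 0 to 5 that fell, 1 to 6 related genes that rose, 0 to 5 that fell, 23 to 702 probe sets that rose and 26 to 382 that fell. The settings that leave out both arrays of one number were chosen after seeing the data; without those numbered 2 no member was called (Mylk, adjusted p = 0.0535), and without those numbered 1 only Mylk was.

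The labels do not say whether the replicate numbers pair the samples, and they were not used as pairs. Over all tested probe sets, deviations of same-numbered arrays correlated at 0.38, 0.04, 0.15 and 0.19, those of other pairs at -0.22 to 0.11. There, every array but BMP7 2, which correlated best with Vehicle 4, correlated best with its own number, a hint from the data and not the design. Over the tested members alone, same-numbered arrays correlated at 0.87, -0.27, 0.18 and 0.14, and other pairs at -0.74 to 0.60. With the replicate block 4 related genes rose, and 374 probe sets rose against 221; the members' calls were the same. Ccn1 passed under the block (adjusted p = 0.0223). Of the called related genes, Junb and Gsn did not pass with no filter, Junb not with the Actb ratio as a covariate (0.0568), and Junb, Gsn, Svil and Flnc not with the hybridisation covariate. Gsn did not pass with median centring (0.0565), without a trend (0.0630) or with the mean over probe sets (0.0774), and neither Gsn nor Svil without suffixed probe sets (0.1264 and 0.1252).

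Directions that turned were all of log2 fold changes that did not pass the test, and the cause was not tested. With quantile normalization Acta2 was 0.24, Cnn3 0.0318 and Actb 0.0410. With median centring Tpm4 was -0.0146 and Csrp2 -0.0501. With array weights Myl9 was -0.85 and Zyx -0.10. With the Actb ratio as a covariate Cnn2 was 0.0572, Tpm4 -0.0091 and Myl9 -0.28. With the hybridisation covariate Acta2 was 0.25, Cnn2 0.20, Cnn3 0.12, Tpm4 -0.0543, Myl9 -0.45, Des -0.0990 and Zyx -0.32. With the mean over probe sets Vcl was 0.0677, Srf 0.0295, Actn1 0.69 (adjusted p = 0.0368) and Zyx -0.51. Without the suffixed probe sets Cnn3 was 0.38, Srf 0.61 and Cald1 0.31. Leaving out arrays, the ranges that crossed 0 were -0.33 to 0.0074 for Acta2, -0.57 to 0.22 for Cnn2, -0.0035 to 0.15 for Tpm4, -0.49 to 0.68 for Myl9, -0.0087 to 0.90 for Des, -0.0702 to 0.17 for Csrp2, -0.0722 to 0.49 for Zyx, -0.0678 to 0.30 for Mrtfa and -0.31 to 1.75 for Fos.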

Other observations

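The array numbered 1 was at least 1.5 times every other array of its group, in both groups, for 47 genes of the array, each on 1 probe set. Mest, an imprinted gene of mesoderm, read 25379.8 on Vehicle 1 against 958.8 to 4925.8 on the other vehicle arrays, and 17110.6 on BMP7 1 against 1404.8 to 2910.7. Gas6, a secreted ligand of the TAM receptors, read 5305.9 against 825.9 to 1136.8 on vehicle and 3242.8 against 611.4 to 829.7 on BMP7 arrays. Both were chosen after their values were seen.

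Actr2 and Actr3, the actin-related subunits of the Arp2/3 complex that nucleates branched filaments, were also chosen after their values were seen. Actr3 read 10163.1 to 13407.1 on vehicle and 16278.8 to 19796.0 on BMP7 arrays, a log2 difference of 0.62 (SE 0.15, adjusted p = 0.0549). Actr2 read 4352.9 to 5483.8 and 7155.5 to 7880.8, a difference of 0.58 (SE 0.16, adjusted p = 0.0723). In both genes every BMP7 array was above every vehicle array. On these probe sets neither passed the threshold with all arrays, and both did without Vehicle 3 (adjusted p = 0.0328 for Actr3 and 0.0358 for Actr2). The other probe sets of Actr3 gave 0.97 (adjusted p = 0.0453) and 0.62 (adjusted p = 0.1203). Of the 6 other subunits in the list of actin dynamics none passed: the differences were 1.25 for Arpc4, 0.0918 for Arpc1b, -0.41 for Arpc1a, -0.25 for Arpc2, -0.21 for Arpc3 and -0.19 for Arpc5.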
